A study of Mus musculus with 5 samples.

Results

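Natural killer (NK) cells and cytotoxic T cells kill by secreting granules, and the genes described here are 10 members of that program measured in mouse liver after treatment with CSF1-Fc. They were chosen by name, with earlier results of these data known, as NK receptors (*Klrk1*, *Klre1*, *Klrd1*, *Klrg1* and *Ncr1*), cytotoxic granule proteins (*Gzma*, *Gzmb* and *Prf1*) and transcription factors (*Eomes* and *Tbx21*). All 10 of the 10 were found, each on 1 array row, among 18820 genes with rows of 1 symbol. Livers came from adult C57BL/6 mice that were injected subcutaneously on 4 days and culled on day 5. The 2 control mice received phosphate-buffered saline (PBS), and the 3 treated mice received CSF1-Fc, pig CSF1 (macrophage colony-stimulating factor) joined to part of a pig immunoglobulin heavy chain, at the 1 mg/kg dose that the methods give. CSF1 is the growth factor of macrophages, and the study used these arrays to ask how the treatment altered gene expression in the liver. Each liver was hybridized to 1 Affymetrix Mouse Gene 1.1 ST array, and all values are log2 of the deposited normalized intensity.

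NK cells read their targets through paired sets of receptors. Activating receptors such as NKG2D (the product of *Klrk1*) and NKp46 (*Ncr1*) detect stress ligands and other cell surface molecules, while inhibitory receptors detect MHC class I or cadherins and hold killing back. On triggering, perforin opens the target membrane and granzymes enter to start cell death. The mouse liver is rich in such cells, and it holds circulating NK cells, which need *Eomes*, beside resident type 1 innate lymphoid cells (ILC1), which need *Tbx21*.

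The arrays were alike in overall brightness, with median intensities from 31.1 to 33.0, and log2 values correlated at 0.983 to 0.991 within groups and 0.960 to 0.973 across them. The NK and cytotoxic genes lay at the dim end. In PBS livers 8 of the 10 had a mean at or under 4.22, the level below which 95% of 990 odorant receptor genes lay, a family that liver is not known to use. *Gzma* and *Tbx21* were the exceptions. In CSF1-Fc livers 6 lay above the corresponding level of 4.10, namely *Klrk1*, *Klrd1*, *Ncr1*, *Gzma*, *Gzmb* and *Tbx21*. Rows differ in their own brightness, so this places the rows on the scale of the array and ranks no gene against another. Near this level the size of a change is uncertain and tends to be understated.

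Of the 10 genes, 2 rose after CSF1-Fc, 0 fell and 8 did not pass the test (limma, Benjamini-Hochberg adjusted p under 0.05 over all rows). Those that rose were *Klrk1* and *Gzmb*. At an unadjusted p under 0.05 limma had 5 higher and 0 lower. The share of all genes at that unadjusted level was not counted, so the 5 has no reference and is not read as a result about these genes. The shares called that follow are at the adjusted threshold. Over all named genes 8.34% were called higher and 3.95% lower (5.77% and 3.19% over all rows), and over the 9856 named genes with a mean log2 value under 6, where all 10 lie, 4.48% were called higher and 0.903% lower. The median log2 difference of the 10 was 0.42, and over all named genes it was -0.08. Their summed intensity was 145 to 157 in PBS livers and 294 to 373 in those given CSF1-Fc. The rise in this sum of linear intensities came mainly from *Klrk1*, *Gzmb* and *Gzma*, with log2 differences of 2.48, 2.26 and 1.06. For 7 of the 10 all 3 CSF1-Fc livers lay above both PBS livers, as they did for 18.2% of named genes and 11.6% of those under a mean of 6. For 1 gene all lay below, as for 29.3% of named genes. In whole liver RNA, more cells of a type and more RNA in each cell cannot be told apart.

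**Figure D1:**
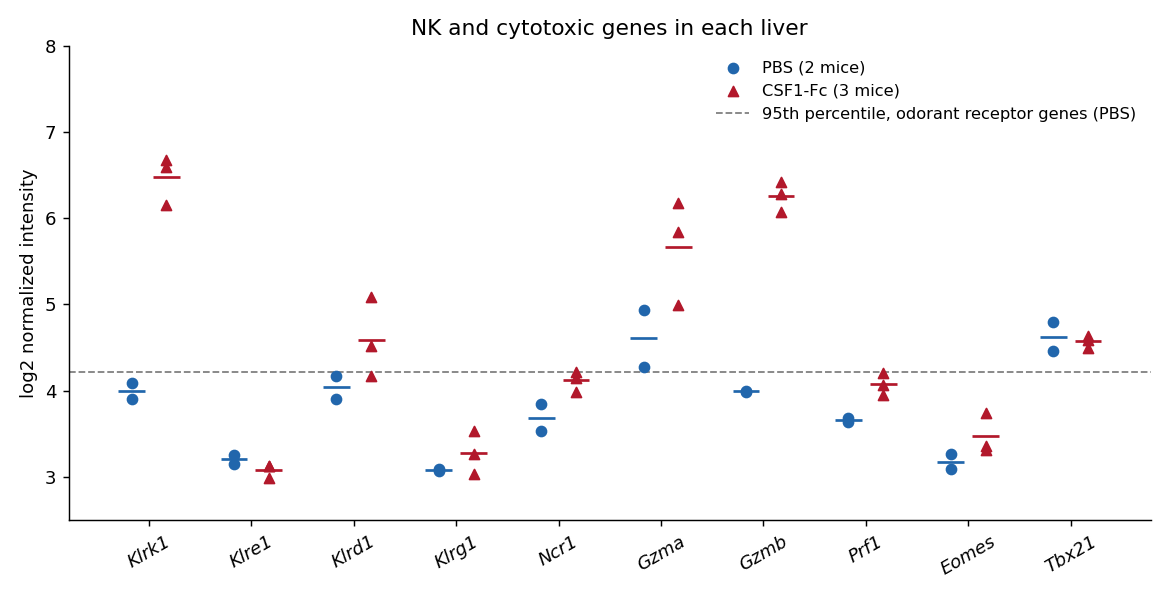
Log2 normalized intensity (vertical axis) of the 10 genes in each liver, with PBS as blue circles, CSF1-Fc as red triangles and group means as short bars, and the dashed line is the 95th percentile of odorant receptor genes in PBS livers, at 4.22. *Klrk1* and *Gzmb* separate widely between the groups, *Gzma* spreads within them, *Tbx21* lies above the line in all 5 livers, *Klrd1* reaches 5.08 in 1 CSF1-Fc liver, and the other genes lie at the line or below it.

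Among the receptors, *Klrk1* stood at 4.09 and 3.90 in the PBS livers against 6.16, 6.60 and 6.68 in the CSF1-Fc livers. The groups were far apart, and the lowest CSF1-Fc value exceeded the higher PBS value by several times the spread within either group. The log2 difference was 2.48 (standard error 0.19, 95% interval 2.02 to 2.95, adjusted p = 0.000727), a rise of 5.60-fold. NKG2D is an activating receptor on NK cells, ILC1 and activated CD8+ T cells, and it signals through the adaptors Hcst and Tyrobp. *Hcst*, the adaptor that lymphocytes use most, had a log2 difference of 0.15 (95% interval -0.24 to 0.53, adjusted p = 0.652). *Tyrobp*, which macrophages express abundantly, rose from a mean of 9.07 to 11.87, a log2 difference of 2.80 (adjusted p = 0.000984). The *Klrk1* call held without each of the 5 arrays in turn (log2 difference 2.38 to 2.64), but without moderation of the variance its adjusted p was 0.056.

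*Ncr1* encodes NKp46, the receptor that most nearly defines NK cells and ILC1. It stood at 3.85 and 3.53 in PBS livers against 4.14, 4.22 and 3.99 in CSF1-Fc livers, so that the groups did not overlap but the gap was smaller than the spread of the PBS values. Its log2 difference was 0.43 (95% interval 0.06 to 0.81, adjusted p = 0.161), and array weights were the one setting under which it passed (adjusted p = 0.0489). Those weights were 4.19 for CSF1-Fc replicate 1 against 0.47 for CSF1-Fc replicate 2 and 0.43 for CSF1-Fc replicate 3.

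*Klrd1* encodes CD94, which pairs with NKG2 chains to read the nonclassical class I molecule Qa-1. Its values were 4.17 and 3.91 in PBS livers against 4.17, 5.08 and 4.51 in CSF1-Fc livers. CSF1-Fc replicate 2 was the highest, and CSF1-Fc replicate 1 exceeded PBS replicate 1 in the third decimal, so that the groups were barely apart. The log2 difference was 0.55 (95% interval -0.11 to 1.21, adjusted p = 0.293). The inhibitory partner of CD94, *Klrc1* (NKG2A), was higher, at 0.98 (adjusted p = 0.0421), a call lost without PBS replicate 1 (0.112), PBS replicate 2 (0.265), CSF1-Fc replicate 1 (0.0912) or CSF1-Fc replicate 3 (0.051), and with a pseudocount of 16 added to the linear intensities (0.0913). *H2-T23*, which encodes Qa-1, was at 0.16 (adjusted p = 0.507).

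*Klrg1*, an inhibitory receptor of mature NK cells and effector T cells that binds cadherins, stood at 3.09 and 3.06 in PBS livers against 3.27, 3.53 and 3.03 in CSF1-Fc livers. The groups overlapped, with a log2 difference of 0.20 (95% interval -0.22 to 0.62, adjusted p = 0.561). Its cadherin ligands *Cdh1* and *Cdh2*, which hepatocytes express, had log2 differences of -0.75 (adjusted p = 0.188) and -1.04 (adjusted p = 0.0504). Both passed in the fit without CSF1-Fc replicate 3 (adjusted p = 0.0247 for *Cdh1* and 0.0118 for *Cdh2*). Of 20 alternatives, a threshold of 0.1 included, *Cdh1* passed in 3 and *Cdh2* in 9. They were not called in the other 17 and 11. *Klre1*, a lectin-like NK receptor, stood at 3.15 and 3.26 in PBS livers against 3.13, 3.12 and 2.99 in CSF1-Fc livers. All CSF1-Fc values were the lower, by a small margin, with a log2 difference of -0.13 (95% interval -0.43 to 0.18, adjusted p = 0.631) that was 0.0069 when arrays were centred on liver secreted proteins.

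Of the granule genes *Gzmb* passed the test, and *Gzma* and *Prf1* did not. *Gzmb* encodes the granzyme that cleaves after aspartate and activates caspases. It stood at 3.99 and 4.00 in PBS livers against 6.42, 6.28 and 6.07 in CSF1-Fc livers. The PBS livers were nearly identical, and every CSF1-Fc liver was well above them. The log2 difference was 2.26 (standard error 0.15, 95% interval 1.90 to 2.62, adjusted p = 0.000456), a rise of 4.81-fold. The call held without each array in turn, with log2 differences from 2.18 to 2.36, and without moderation of the variance (adjusted p = 0.0407). The CSF1-Fc liver with the highest *Gzmb* had the lowest *Klrk1*. With the pseudocount of 16 the differences of *Klrk1* and *Gzmb* were 1.72 and 1.54, and both were still called.

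*Gzma*, the tryptase-like granzyme, was the most variable of the 10. It stood at 4.94 and 4.28 in PBS livers against 5.00, 6.18 and 5.84 in CSF1-Fc livers, and the lowest CSF1-Fc value lay just above the higher PBS value. Its log2 difference of 1.06 (95% interval 0.16 to 1.96, adjusted p = 0.152) did not pass, and it ranged from 0.73 without PBS replicate 2 to 1.40 without CSF1-Fc replicate 1. *Prf1*, the pore-forming perforin, stood at 3.68 and 3.64 in PBS livers against 4.20, 3.95 and 4.07 in CSF1-Fc livers. Each CSF1-Fc liver lay above both PBS livers, but the log2 difference of 0.41 (95% interval 0.09 to 0.74, adjusted p = 0.127) did not pass. *Prf1* too passed with array weights (adjusted p = 0.0221), in a fit that leans on CSF1-Fc replicate 1, where its value was highest. The interval of *Gzmb* lay wholly above that of *Prf1*, while its lower end, 1.90, was under the upper end of that of *Gzma*. The mean of *Prf1* lay under the odorant receptor level in both groups, so its interval sets no limit on its change. The differences between these genes were not tested.

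**Figure D2:**
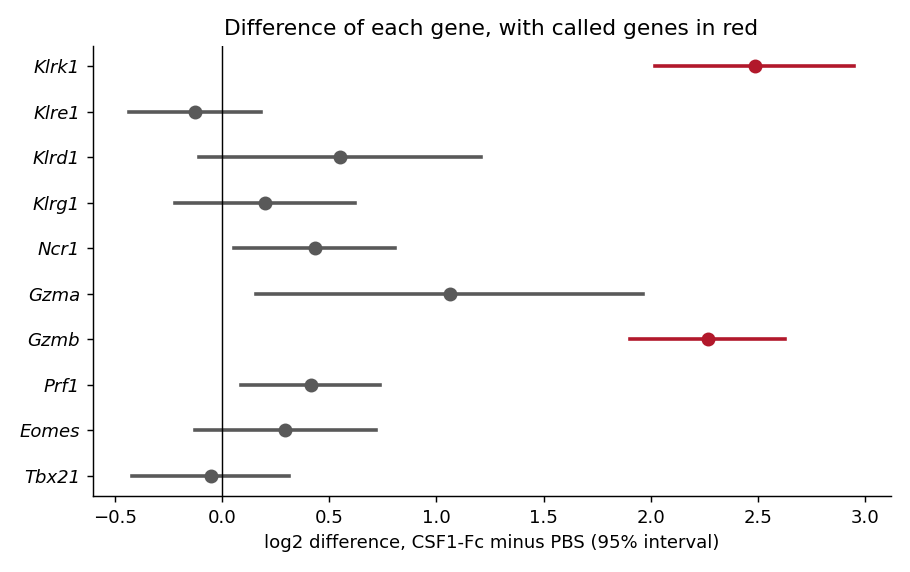
Log2 difference, CSF1-Fc minus PBS (horizontal axis), of each of the 10 genes with its 95% interval from limma; the 2 called genes, *Klrk1* at 2.48 and *Gzmb* at 2.26, are red. The intervals of the other 8 genes lie wholly below those of the called genes, apart from that of *Gzma*, which reaches 1.96 and so passes the lower end of *Gzmb*.

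Neither transcription factor passed the test. *Eomes* stood at 3.09 and 3.26 in PBS livers against 3.31, 3.74 and 3.36 in CSF1-Fc livers, all dim, with a log2 difference of 0.30 (95% interval -0.13 to 0.72, adjusted p = 0.379). *Tbx21*, which encodes T-bet, stood at 4.46 and 4.80 in PBS livers against 4.50, 4.64 and 4.59 in CSF1-Fc livers. The CSF1-Fc values lay between the PBS values, and its log2 difference was -0.05 (95% interval -0.42 to 0.31, adjusted p = 0.886). For *Tbx21* the sign turned with arrays centred on liver secreted proteins (0.080) and without PBS replicate 2 (0.12). The mean of *Eomes*, like those of *Klre1*, *Klrg1* and *Prf1*, lay under the level of odorant receptor genes in both groups. The intervals of these genes therefore set no limit on their change.

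Promoter sequences are shown for the 2 genes that rose and, beside them, for *Ncr1*, an NK gene that was not called. Windows from 250 bases before to 50 bases after the start site were held for 8 of the 10 genes in RefSeq (GRCm38.p6). Those printed are chr14:56262285-56262584 (*Gzmb*, minus strand), chr6:129623815-129624114 (*Klrk1*, minus strand) and chr7:4337465-4337764 (*Ncr1*, plus strand), each written in the direction of its gene. Capitals mark the Runx motif TGTGGTT.
Gzmb: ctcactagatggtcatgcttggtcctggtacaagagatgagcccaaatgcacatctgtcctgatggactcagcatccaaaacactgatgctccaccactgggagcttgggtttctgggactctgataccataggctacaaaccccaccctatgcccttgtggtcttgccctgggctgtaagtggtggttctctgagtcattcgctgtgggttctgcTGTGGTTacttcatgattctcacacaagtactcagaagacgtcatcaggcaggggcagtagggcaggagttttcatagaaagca
Klrk1: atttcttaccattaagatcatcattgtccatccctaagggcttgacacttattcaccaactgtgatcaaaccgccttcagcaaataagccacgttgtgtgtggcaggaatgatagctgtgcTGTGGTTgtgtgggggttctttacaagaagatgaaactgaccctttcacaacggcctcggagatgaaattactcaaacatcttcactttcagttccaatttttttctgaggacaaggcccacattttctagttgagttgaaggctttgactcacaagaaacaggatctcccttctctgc
Ncr1: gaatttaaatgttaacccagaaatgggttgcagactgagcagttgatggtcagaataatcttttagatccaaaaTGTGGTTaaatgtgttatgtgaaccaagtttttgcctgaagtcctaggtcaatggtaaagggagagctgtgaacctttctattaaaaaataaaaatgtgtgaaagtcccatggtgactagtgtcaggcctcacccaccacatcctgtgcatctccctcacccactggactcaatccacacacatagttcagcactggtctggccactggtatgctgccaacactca
The Runx motif, searched on both strands, began at base -34 in *Gzmb*, at -129 in *Klrk1* and at -176 in *Ncr1*, counted from the start site. It was present for 5 of the 8 genes (also *Gzma* and *Klre1*), among them genes that were called and genes that were not, and in 5.27% of the 32851 windows of all genes. Where a gene had several windows, a match in any of them was counted. Runx factors are known regulators of cytotoxic lymphocytes. The Ets motif AGGAAGT was found for *Prf1* and *Tbx21*, and in 9.35% of all windows. The T-box motif GGTGTGA, the core that *Eomes* and *Tbx21* products bind, was found for 0 of the 8 and in 3.98% of all windows. No matches overlapped, and a match in these letters is a description of the window and not a binding site.

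Other receptors and adaptors of NK cells gave a mixed picture. CSF1-Fc livers were higher for 7 of the 27 on the array and lower for 0, and 20 did not pass, with a median log2 difference of 0.26. The strongest rises were those of genes that myeloid cells share, *Fcgr3* (an Fc receptor, 3.12, adjusted p = 0.000752) and *Tyrobp*. *Sh2d1b1*, which encodes the SLAM adaptor EAT-2, rose by 1.69 (adjusted p = 0.00265), and *Cd7* rose by 1.13 (adjusted p = 0.027). The call of *Cd7* was lost without PBS replicate 1 (adjusted p = 0.112), PBS replicate 2 (0.188) or CSF1-Fc replicate 1 (0.0969), with quantile normalization (0.0518) and with the pseudocount (0.0547). The lectin-like receptors *Klri1* and *Klrb1f* were at 0.71 (adjusted p = 0.0273) and 0.66 (adjusted p = 0.0226), and both calls ended without PBS replicate 1 (0.19 and 0.162), PBS replicate 2 (0.119 and 0.15) or CSF1-Fc replicate 1 (0.107 and 0.103), and that of *Klri1* without CSF1-Fc replicate 2 (0.0582) or with the pseudocount (0.051). *Klrb1c*, the NK1.1 antigen by which NK cells are sorted in this strain, was dim in both groups (means 3.08 and 3.61), at 0.53 (adjusted p = 0.0637). It passed with array weights (0.0192), on rows of 1 gene symbol (0.0247), with quantile normalization (0.0348) and with a variance trend (0.0466). With the threshold of 0.1 these made 5 of 18 alternatives, and in the other 13 it was not called.

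Other genes of granules and killing were higher in 8 of 21 cases and lower in 0, with a median of 0.21. Several of those called also serve secretion in other leukocytes. *Stx11*, a syntaxin needed for granule release, rose by 1.74 (adjusted p = 0.00104), *Srgn*, the proteoglycan core of granules, by 1.41 (adjusted p = 0.00921), and *Ctsc*, the protease that activates granzymes, by 1.16 (adjusted p = 0.0118). *Nkg7*, a granule membrane protein of cytotoxic cells, rose by 1.95 (adjusted p = 0.0372), with values of 5.77 and 5.45 in PBS livers against 7.58, 8.30 and 6.79 in CSF1-Fc livers. Its call was lost without PBS replicate 1 (adjusted p = 0.129), PBS replicate 2 (0.216) or CSF1-Fc replicate 1 (0.122), with quantile normalization (0.0584) and with the pseudocount (0.0855). Those of *Srgn* and *Ctsc* were lost without PBS replicate 2 (0.0716 and 0.107), and that of *Ctsc* also without CSF1-Fc replicate 1 (0.0568). Also called were *Ccl5* at 1.07 (adjusted p = 0.0469), *Ctsw* at 0.75 (0.04), *Xcl1* at 0.67 (0.048) and *Unc13d* at 0.56 (0.041). In the fit without CSF1-Fc replicate 1 these calls were lost (0.109, 0.127, 0.164 and 0.156). Those of *Ccl5*, *Xcl1* and *Unc13d* were lost without CSF1-Fc replicate 2 (0.0804, 0.0963 and 0.0805). Those of *Ccl5*, *Ctsw* and *Xcl1* were lost without CSF1-Fc replicate 3 (0.0654, 0.0659 and 0.0535) and with the pseudocount (0.073, 0.0734 and 0.0525). The 4 log2 differences were 1.39, 0.67, 0.84 and 0.59 without PBS replicate 1, and 0.75, 0.82, 0.50 and 0.54 without PBS replicate 2. *Serpinb9*, the intracellular inhibitor of granzyme B, was at -0.29 (adjusted p = 0.271), the cytokine *Ifng* at 0.21 (adjusted p = 0.522) and the death ligand *Tnfsf10* at 0.19 (adjusted p = 0.614).

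**Figure D3:**
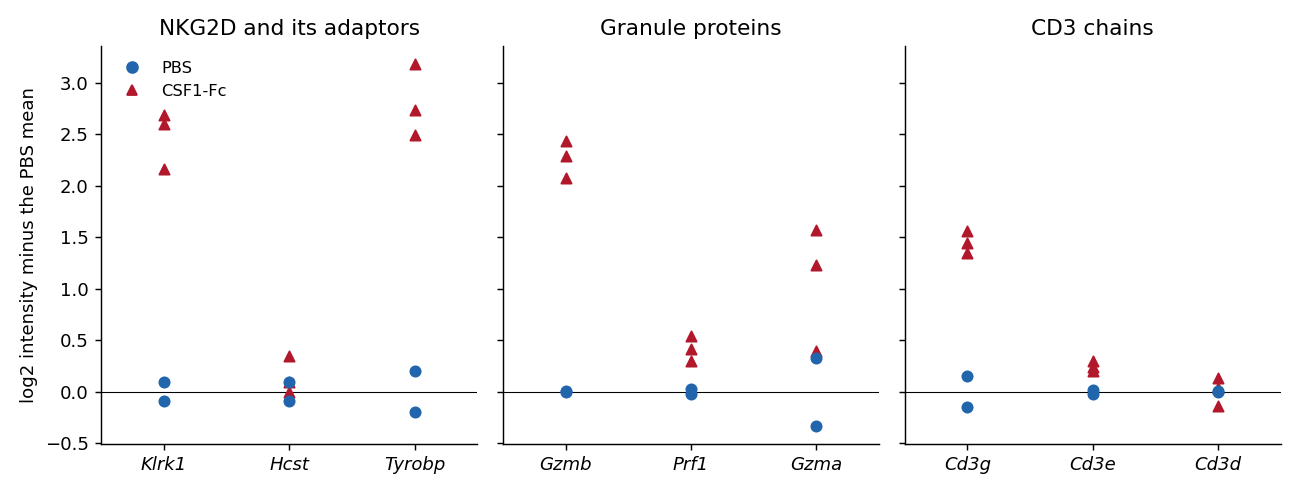
Log2 intensity minus the PBS mean of the same gene (vertical axis) in PBS (blue circles) and CSF1-Fc livers (red triangles), for NKG2D and its adaptors, for granule proteins and for CD3 chains. *Klrk1*, *Tyrobp*, *Gzmb* and *Cd3g* lie well above 0 in every CSF1-Fc liver, whereas *Hcst*, *Prf1*, *Cd3e* and *Cd3d* lie no more than 0.54 from it. The means of *Prf1* and *Cd3d* lie under the odorant receptor level in both groups.

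Among 29 cytokines, cytokine receptors and regulators of NK cells, 6 were called higher and 2 lower, while 21 did not pass, with a median of 0.09. *Il15*, the cytokine on which NK cells depend for survival, rose by 1.86 (standard error 0.19, adjusted p = 0.00196), from 5.76 and 5.30 in PBS livers to 7.27, 7.57 and 7.31 in CSF1-Fc livers. *Il15ra*, which presents it to NK cells, was at -0.81 (adjusted p = 0.0723) and was lower in the fit without CSF1-Fc replicate 2 (-0.99, adjusted p = 0.0194). *Il2rb*, the signalling chain through which NK cells receive it, was at 0.74 (adjusted p = 0.0534) and was higher without CSF1-Fc replicate 3 (adjusted p = 0.0317). Of 20 alternatives, the threshold of 0.1 included, *Il15ra* passed in 5 and *Il2rb* in 7. They were not called in the other 15 and 13. The factors *Irf8* and *Zeb2*, which act in NK cells and in myeloid cells, rose by 2.26 and 1.56 (adjusted p = 0.0006 and 0.00118). *Zbtb16*, the factor of NKT cells and ILC precursors that hepatocytes also express, fell by 1.78 (adjusted p = 0.00381). *Nfil3*, needed for NK cell development and also a clock gene in liver, was at -1.42 (adjusted p = 0.0325), a call lost without PBS replicate 1 (0.0983), PBS replicate 2 (0.214), CSF1-Fc replicate 2 (0.0662) or CSF1-Fc replicate 3 (0.0646), and with the pseudocount (0.058).

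Ligands of NK receptors were called higher for 2 of 13 and lower for 1, while 10 did not pass, with a median of 0.05. *Cd48*, the ligand of the receptor 2B4 and a general leukocyte antigen, rose by 2.74 (adjusted p = 0.000465). *Clec2i*, a ligand of NKR-P1 receptors, rose by 1.84 (adjusted p = 0.00161). *Nectin2*, a ligand of DNAM-1 and TIGIT, was at -0.76 (adjusted p = 0.0341), and this call was lost in each fit that left out 1 array (adjusted p from 0.0572 to 0.202) and when arrays were centred on liver secreted proteins (0.0641). Over all 4 of these lists together 23 of 90 genes were higher and 3 lower, with a median of 0.18. The number higher was 9 and 11 when PBS replicate 2 or PBS replicate 1 was left out, 10 when CSF1-Fc replicate 1 was, and 4 without moderation of the variance.

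**Figure D4:**
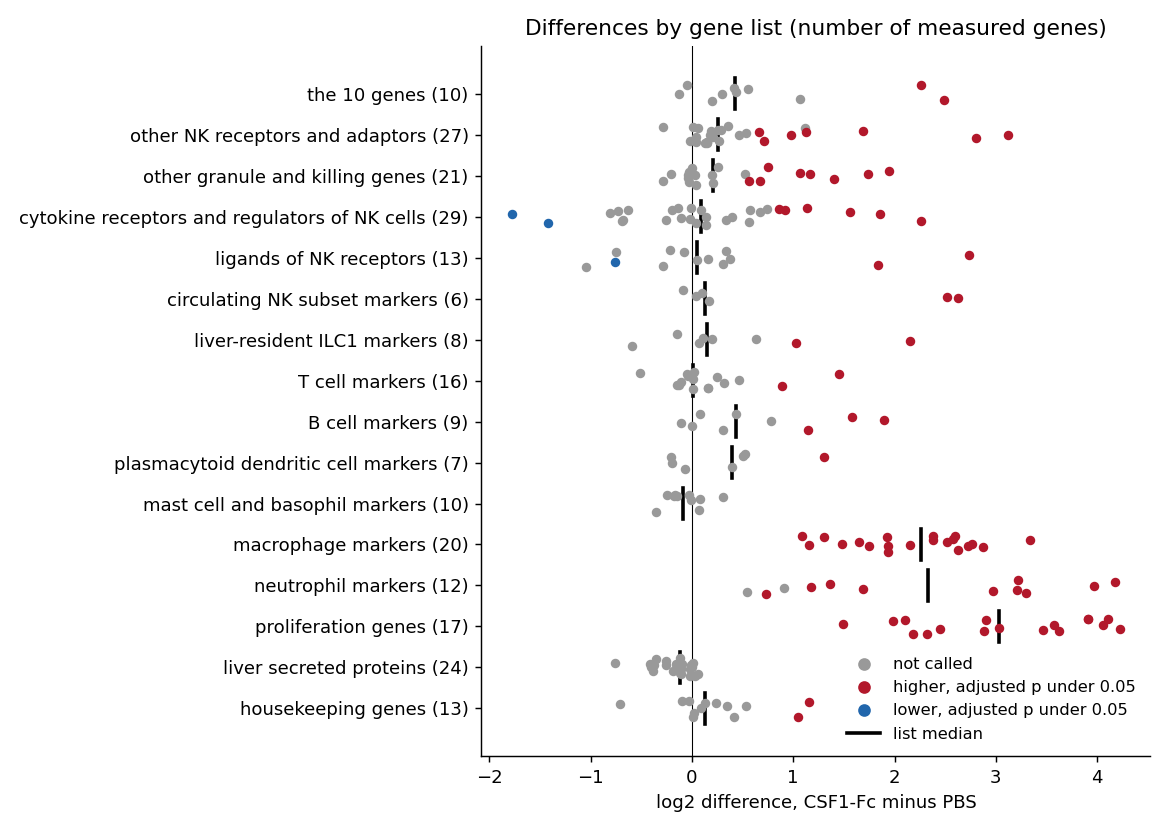
Log2 difference, CSF1-Fc minus PBS (horizontal axis), of each measured gene in 16 lists, with the list median as a black bar and calls in red (higher) and blue (lower). Lists of NK, T cell and ILC1 genes centre between 0.01 and 0.42 with a few genes far to the right, and all macrophage and proliferation genes lie to the right of 1.

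Markers of NK subsets and of other cells gave the following. Of 6 markers of circulating NK cells 2 were higher, *Cx3cr1* (2.63) and *Itgam* (2.52), both of which monocytes also express (adjusted p = 0.00106 and 0.00228). Of 8 markers of liver ILC1 2 were higher, *Rgs1* (2.15, adjusted p = 0.0212) and *Cd200r1* (1.03, adjusted p = 0.0109). The log2 differences of the 8 ran from -0.59 to 2.15, with a median of 0.15. Without PBS replicate 1 or PBS replicate 2 both calls ended (0.128 and 0.0983 for *Rgs1*, 0.0901 and 0.084 for *Cd200r1*), and that of *Cd200r1* ended also when CSF1-Fc replicate 1 was dropped (0.0514). With the pseudocount *Rgs1* was not called (0.0649). *Cxcr6*, the chemokine receptor of resident lymphocytes, was at 0.07 (adjusted p = 0.814). Of 16 T cell markers 2 were higher, with a median of 0.01. *Cd3g* rose by 1.45 (adjusted p = 0.00222), but the other CD3 chains *Cd3e* and *Cd3d* were at 0.25 and 0.01 (adjusted p = 0.293 and 0.98) and *Cd8a* at 0.16 (adjusted p = 0.652), with *Cd3d* on either side of 0 as arrays were left out (-0.053 without CSF1-Fc replicate 1). The mean of *Cd3d* lay under the odorant receptor level in both groups (3.42 and 3.43), and that of *Cd8a* in PBS livers (3.96). The differences of *Cd3d* and *Cd8a* therefore set no limit on their change. The summed intensity of the T cell markers was 311 to 317 in PBS livers and 341 to 381 in CSF1-Fc livers. Most of the rise in that sum came from the 2 called genes, *Cd3g* and *Lat*. *Lat*, the other call, was at 0.89 (adjusted p = 0.0218) and was lost without PBS replicate 1 (0.153), PBS replicate 2 (0.0983) or CSF1-Fc replicate 1 (0.0753).

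Markers of other leukocytes differed by cell type. All 20 macrophage markers were higher (median 2.26), and their summed intensity went from 9528 and 10484 in PBS livers to between 42864 and 45399. Of 12 neutrophil markers 10 were higher (median 2.33, summed intensity 253 to 348 against 2068 to 2393), and of 9 B cell markers 3 were higher (*Cd79b*, *Cd79a* and *Ms4a1*, summed intensity 232 to 234 against 503 to 506). The *Ms4a1* call was lost without PBS replicate 1 (adjusted p = 0.0544). Of 7 markers of plasmacytoid dendritic cells, which can express *Gzmb*, 1 was higher, *Tlr9*, at 1.30 (adjusted p = 0.0469, and from 0.0591 to 0.23 without any array other than CSF1-Fc replicate 2, 0.0961 with the pseudocount and 0.0514 with a variance trend), and their summed intensity was 965 to 993 against 1233 to 1568, most of it from *Bst2*, which was not called (0.53, adjusted p = 0.205) but passed without CSF1-Fc replicate 3 (0.0333) and with array weights (0.0287). Of 10 markers of mast cells and basophils, 0 were higher and 0 lower by limma, and at an unadjusted p under 0.05 there were also 0, with summed intensity of 226 to 230 against 207 to 235. Most of these markers lay under the odorant receptor level in both groups, so their differences set no limit on a change. All 17 proliferation genes were higher (median 3.03, led by *Ccna2* at 4.23, summed intensity 1137 to 1228 against 7766 to 8774). No marker was listed at 0. The part of each of these cell types in the rise of *Klrk1* and *Gzmb* was not tested. Of 24 liver secreted proteins 0 were higher and 0 lower by limma, and at an unadjusted p under 0.05 there were 0 higher and 1 lower. All 3 CSF1-Fc livers were lower for 14 of the 24, and the summed intensity was 159281 to 159936 against 139848 to 153935, while *Alb*, the defining hepatocyte transcript, was at 13.20 to 13.28 in all 5 livers, near the top of the array where changes may be compressed. Of 13 housekeeping genes 2 were higher, *Tfrc* and *Gusb*. The call of *Tfrc* was lost without PBS replicate 1 (adjusted p = 0.212), PBS replicate 2 (0.0983), CSF1-Fc replicate 1 (0.123) or CSF1-Fc replicate 3 (0.0763) and with the pseudocount (0.0673), and that of *Gusb* without PBS replicate 2 (0.0559).

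The mean log2 value of the 10 genes was 3.85 and 3.76 in PBS livers against 4.43, 4.73 and 4.51 in CSF1-Fc livers, a shape set mainly by *Klrk1*, *Gzmb* and *Gzma*. The genes whose values over the 5 arrays lay closest to this shape, each taken about its own mean, were *Cxcr4*, *Mfng*, *Asb4*, *Hfe* and *Tsc22d4*. Their root mean square differences from it were 0.03 to 0.05 log2 units, and their own log2 differences were 0.72 to 0.81. *Cxcr4* is a chemokine receptor of most leukocytes. This likeness over 5 arrays describes the profile and nothing more.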

How the data were processed

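Total RNA from 5 livers was amplified and labelled with the Nugen Pico SL and Encore kits and hybridized to 1-colour Affymetrix Mouse Gene 1.1 ST arrays. The labels name Trizol and the methods RNA Bee for extraction. The deposited values are intensities normalized by the authors on a linear scale, 1 for each of 35556 rows. Quality was checked in Expression Console (version 1.1 in the submitters' processing notes) and data were imported into Partek Genomics Suite. How background was corrected and how probes were normalized and summarised was not given in the sources used here.

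Each row's log2 values went into a limma model (limma 3.58.1, R 4.3.3, 1 mean per group, eBayes defaults, 3 residual and 3.34 prior degrees of freedom, two-sided), and p-values were adjusted by Benjamini and Hochberg's method across every row, at a threshold of 0.05. The methods name no test for the arrays. Groups came from the sample titles. An exact permutation test of 3 arrays against 2 cannot give a two-sided p under 0.2. Precision is limited by the number of arrays, 1 mouse each. The p-values rest on the spread between these mice, moderated by a variance prior shared over all rows. Rows were named from the platform annotation (21218 with 1 symbol, 1881 with several, 12457 unnamed here), and a gene with several rows took the brightest. Genes on rows of several symbols, such as some *Klra* receptors, were not used.

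The members and the lists were chosen with earlier results of these data known. Genes were named by a rule (all members, and per list up to 4 of the largest changes called, or the lowest p), and *Alb*, *Bst2*, *Ccl5*, *Cd3d*, *Cd3e*, *Cd8a*, *Cdh1*, *Cdh2*, *Ctsw*, *Cxcr6*, *H2-T23*, *Hcst*, *Ifng*, *Il15ra*, *Il2rb*, *Klrb1c*, *Klrb1f*, *Klrc1*, *Klri1*, *Nfil3*, *Serpinb9*, *Tnfsf10*, *Unc13d*, *Xcl1* and the odorant receptors were added after values were seen. The fit was tested on simulated data. Alternatives were other scalings, a pseudocount, filters on dim rows, rows of 1 symbol, the mean over rows, other variance models, array weights, a replicate block, each array left out, and other thresholds.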

Additional observations from a re-analysis of the deposited data

How the results depend on the processing

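With each alternative run except 2, the counts stayed at 2 genes higher and 0 lower. Filters on a mean log2 of at least 4 and 5 left 5 and 3 of the 10 genes to test. Those filters used the mean over all 5 arrays. *Klrk1* and *Gzmb*, with PBS means of 3.99, passed them only through their CSF1-Fc means (6.48 and 6.26). The filters are therefore no check on these 2 calls. Taking the mean over rows could not change the values of the 10 genes, each on 1 row. With array weights, which lean on CSF1-Fc replicate 1 among the treated livers, 4 were higher (*Ncr1* and *Prf1* also). With no variance moderation 1 was higher (*Gzmb*). Leaving out each array in turn gave 2 to 2 higher and 0 to 0 lower. Directions reversed for *Klre1* (0.0069) and *Tbx21* (0.080) with arrays centred on liver secreted proteins, for *Tbx21* without PBS replicate 2 (0.12), and for *Cd3d* when CSF1-Fc replicate 1 (-0.053) or CSF1-Fc replicate 2 (-0.0046) was dropped. With 1 array left out *Tbx21* ranged from -0.22 to 0.12 and *Cd3d* from -0.053 to 0.085. None of these was called in any of those fits, and the causes were not tested. Centring on liver secreted proteins moved the median log2 difference of all rows from -0.08 to 0.06, and the share of calls that were higher from 64.4% to 78.1%.

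Of the 90 other NK and cytotoxic genes, 23 were higher and 3 lower. The number higher was 4 with no variance moderation, 15 with the replicate block, 10 at an adjusted p under 0.01 and 15 with at least a 2-fold change. The number lower was 9 with array weights, 5 centred on the array median, 0 with no variance moderation, 7 on rows of 1 gene symbol, 5 and 7 on rows with a mean of at least 4 and 5, 1 at 0.01 and 7 at 0.1. With 1 array left out, 9 to 19 were higher and 1 to 3 lower. Of all 35556 rows, 2052 were higher and 1133 lower. With array weights these were 3416 and 3805, with no variance moderation 550 and 127, and at 0.01 they were 1255 and 177. The number lower was 675 centred on secreted proteins, 1772 on rows of 1 symbol, 2205 at 0.1 and 393 with at least a 2-fold change. With 1 array left out, 1079 to 2053 were higher and 134 to 1768 lower, where a lone PBS array is assumed to vary like the rest.

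The replicate numbers are in the titles alone, and nothing says that they mark a shared litter or day. Deviations from the group means correlated at -0.07 between the arrays numbered 1 and -0.25 between those numbered 2. With the replicate number as a block, *Klrk1* was at 2.38 (adjusted p = 0.00607) and *Gzmb* at 2.36 (adjusted p = 0.00421), with 2 of the 10 genes higher, and over all rows 1577 were higher and 927 lower. Only CSF1-Fc replicate 3 has that number, so the block takes up this array. The log2 differences are therefore those of the fit without CSF1-Fc replicate 3, and the block is no separate check. Signal over background limits 8 of the 10 genes in PBS livers.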
